A study of Homo sapiens with 20 samples.

Results

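The aminoacyl-tRNA synthetase genes were examined in RNA-seq data from HT29 and SW480 cells in which POLR1D had been silenced. The set holds 39 genes chosen by name, namely 36 synthetase genes and 3 genes of scaffold proteins, out of 36346 gene names in the files. It comprises 8 cytosolic synthetases that sit in the multi-synthetase complex, 12 cytosolic synthetases outside it, 16 mitochondrial synthetases and the scaffolds AIMP1, AIMP2 and EEF1E1. All 39 were found in each of the 20 libraries and passed the filter on low values in both cell lines. HT29 and SW480 are established human colorectal cancer cell lines. HT29 carries a focal amplification of the region that holds POLR1D, and SW480 a gain of the whole of chromosome 13, as the study describes them. POLR1D is a subunit shared by RNA polymerases I and III, which make ribosomal RNA, transfer RNA and other small RNAs. In HT29, 4 libraries came from cells transfected with a scrambled siRNA (SCR), 2 from cells with siPOLR1D-2 and 2 from cells with siPOLR1D-3, and in SW480 the numbers were 6, 3 and 3. RNA was taken 72 h after transfection. Every group is a transient siRNA transfection in 1 line with no untransfected library analysed here, and no label says that libraries of a group came from separate cultures. The p-values below therefore measure the spread between these libraries, which may be technical.

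An aminoacyl-tRNA synthetase joins an amino acid to its matching tRNA, the step that feeds translation. Cells keep separate enzymes for the cytosol and for the mitochondrion, with GARS and KARS each supplying both compartments from 1 gene. A group of cytosolic enzymes is held together in the multi-synthetase complex by the scaffolds. In mammalian cells many cytosolic synthetase genes are known targets of ATF4, the transcription factor that responds to amino acid shortage.

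The values are read counts normalized by the authors within each line, and are called normalized read counts here. Estimated depth ran from 13500000 to 27700000 reads per library. Differences are on the log2(value + 1) scale, silenced minus SCR, from limma fits over 13274 genes in HT29 and 15019 genes in SW480, and a gene is called higher or lower where its Benjamini-Hochberg adjusted p is under 0.05. POLR1D fell in SW480 from 2116 ± 281 in SCR to 1036 ± 183 in silenced libraries (SD, n = 6 and 6), a log2 fold change of -1.04 (adjusted p = 0.000991, SE 0.13). In HT29 it went from 5048 ± 699.7 in SCR to 3078 ± 452 in silenced libraries (SD, n = 4 and 4), a log2 fold change of -0.72 (adjusted p = 0.355, SE 0.14). Every silenced library lay below every SCR library of its line. Of 10 markers of colorectal epithelium, 8 had a mean of at least 100 in each line, while CDX2 and GPA33 were under 10 in HT29. Summed over 8 markers of immune, fibroblast and endothelial cells, the libraries held 69.3 to 167 in HT29 and 190.2 to 824 in SW480, with no separation of SCR from silenced libraries. On the first principal component of all genes, SCR 1 stood apart from the other HT29 libraries. The SW480 libraries fell on opposite sides of it, SCR 1 to 3 with siPOLR1D-2 1 and 2 against SCR 4 to 6 with siPOLR1D-2 3 and siPOLR1D-3 1 to 3, and results are given within each side below.

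In SW480 the silenced libraries held less mRNA of the cytosolic synthetases, while among the mitochondrial synthetases SARS2 rose and the others were not called. The libraries are bulk RNA with values normalized within each line, so fewer cells that express a gene and less of its RNA per cell cannot be told apart. Of the 20 cytosolic synthetase genes, 13 fell, by a log2 fold change of -0.44 to -0.96, and none rose. Among all genes tested in SW480, 6.73% were called, 4.29% lower and 2.44% higher. The 13 were GARS, CARS, SARS, WARS, AARS, EPRS, YARS, IARS, MARS, LARS, RARS, VARS and NARS. The median log2 fold change was -0.53 over the cytosolic synthetases, -0.05 over the mitochondrial ones and 0.013 over all genes tested. In HT29 the medians were -0.42, 0.01 and 0.00019, but no gene of the 39 was called, nor any of the 13274 genes tested with limma, 1422 of which had an unadjusted p under 0.05. The study tested the same libraries with DESeq2 and listed POLR1D, GARS and AARS as differently expressed in both lines. The lack of calls in HT29 holds for the limma fits used here.

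**Figure D1:**
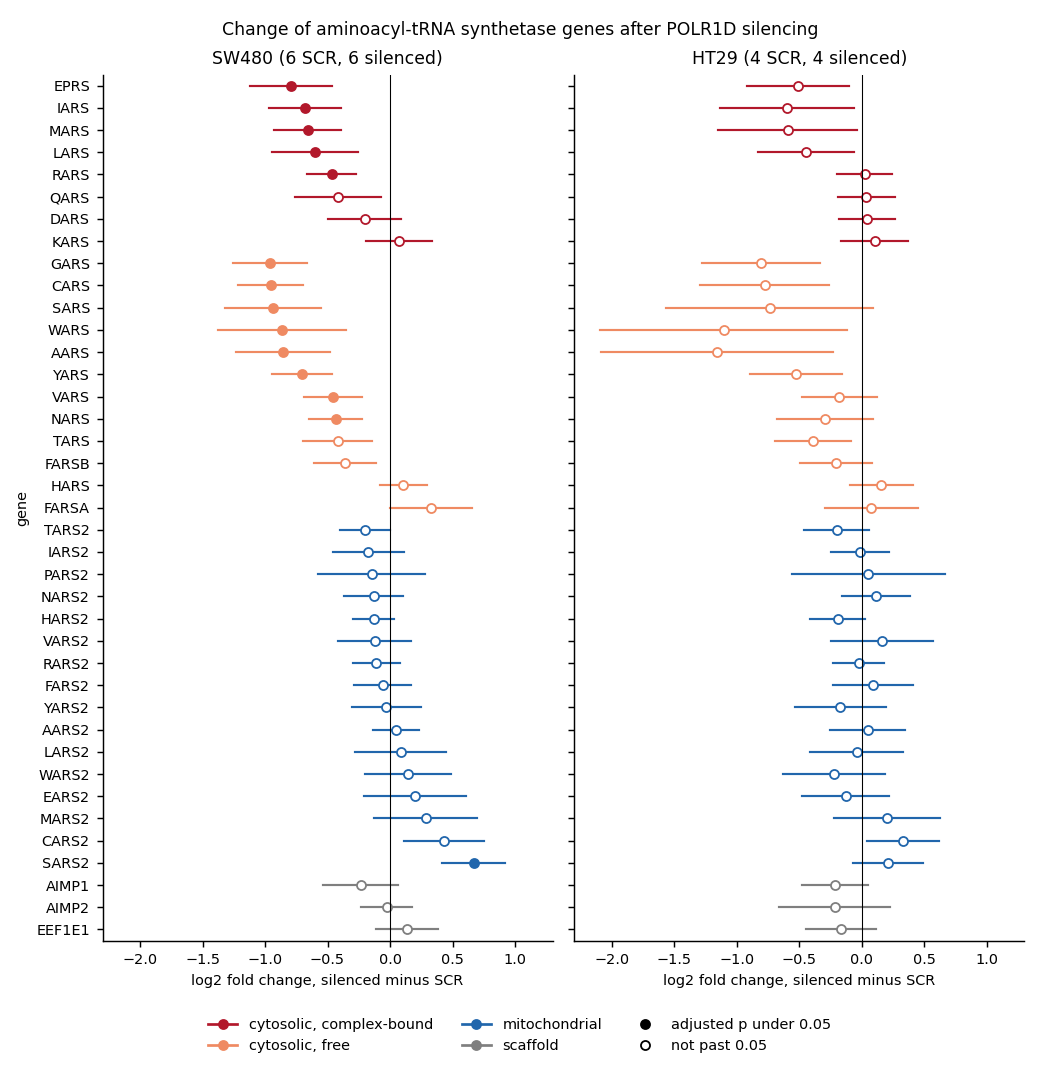
Log2 fold change (x axis, silenced minus SCR on the log2(value + 1) scale, limma) of each of the 39 genes (y axis) in SW480, left, and HT29, right, with bars for the 95% confidence interval and colours for the class. Filled points have an adjusted p under 0.05. In SW480, 13 cytosolic genes lie left of 0 with filled points and SARS2 lies right of it, while in HT29 no point is filled and the bars of AARS and WARS are the widest.

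In the SCR libraries, the cytosolic enzymes also had a higher median count per length than the mitochondrial ones. Levels were compared between genes only per length, as normalized reads per kb of the principal transcript in GENCODE 29. The libraries were made by exome capture, and its effect on levels between genes was not tested. In SW480 the cytosolic synthetases had a median of 2748 per kb, the mitochondrial ones 247 per kb and the scaffolds 748 per kb. The same 3 medians in HT29 were 1705, 190.4 and 721 per kb. GARS was the highest member in both lines, at 17865 ± 3130 per kb in SW480 (SD, n = 6) and 10449.8 ± 3240 per kb in HT29 (SD, n = 4). The following genes in SW480 were IARS at 4671 ± 788 per kb, KARS at 4347 ± 899.5 per kb and MARS at 3942 ± 477 per kb. Between IARS and KARS, and between KARS and MARS, the difference was less than the SD of either gene. PARS2, the mitochondrial prolyl-tRNA synthetase, was the lowest in both lines, at 21.6 ± 3.88 per kb in SW480 and 15.7 ± 3.09 per kb in HT29. RARS2 at 2207 ± 139 per kb in SW480 and IARS2 at 1147 ± 87.8 per kb in HT29 were the highest mitochondrial members, within the cytosolic range of each line.

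Among the free cytosolic synthetases 8 of 12 fell in SW480, and the 5 largest falls of the 39 genes were all in this class. GARS charges tRNA with glycine and lies on chromosome 7 (30594681 to 30634033, plus strand, GRCh38). Its normalized read count ran from 35788 to 57366 with a median of 46365 in the SCR libraries, and from 18956 to 29829 with a median of 23062 in the silenced libraries. All silenced libraries were below all SCR libraries, a 1.95-fold lower mean and a log2 fold change of -0.96 (adjusted p = 0.00275, SE 0.14). GARS and AARS are among the genes that the study singled out from these same libraries, so their direction is not independent evidence. CARS, the cysteinyl-tRNA synthetase, ran from 1939 to 2925 with a median of 2445 in the SCR libraries, and from 1085 to 1653 with a median of 1202 in the silenced libraries. Its mean was 1.94-fold lower with no overlap of the groups, and the log2 fold change was -0.96 (adjusted p = 0.00141, SE 0.12), the smallest adjusted p among the 39 genes. SARS charges tRNA with serine, and also the tRNA for selenocysteine. It had a lowest, median and highest value of 4537, 5909 and 9783 in SCR and of 2669, 3025 and 4142 after silencing. The groups did not overlap, although SCR 3 lay well above the other SCR libraries, and the log2 fold change was -0.94 (adjusted p = 0.0104, SE 0.18).

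AARS attaches alanine, and its counts ran from 10939.5 to 20528 with a median of 12593 in the SCR libraries, and from 5935 to 10274 with a median of 6873 in the silenced libraries. SCR 3 was far above the other SCR libraries, yet all silenced libraries were below all SCR libraries and the log2 fold change was -0.86 (adjusted p = 0.0137, SE 0.17). WARS, the tryptophanyl-tRNA synthetase, is also known as an interferon-induced gene. It had a lowest, median and highest value of 2699.9, 4418 and 9733 in SCR and of 2115, 2428 and 3047 after silencing. Here the groups overlapped, since SCR 1 was at 2699.9 and 2 siPOLR1D-2 libraries were above it, and the log2 fold change of -0.86 (adjusted p = 0.045, SE 0.24) remained past the threshold in 4 of the 12 fits that left out 1 SW480 library each. It lost the call without SCR 4, 5 or 6, siPOLR1D-2 1 or 3, or siPOLR1D-3 1, 2 or 3, with log2 fold changes of -0.90 to -0.82 and adjusted p of 0.0573 to 0.0947. YARS, which attaches tyrosine, ran from 7484 to 10518 with a median of 7849 in the SCR libraries, and from 4433 to 6305 with a median of 4939 in the silenced libraries. The ranges were apart, with a log2 fold change of -0.71 (adjusted p = 0.00439, SE 0.11).

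VARS and NARS, the enzymes for valine and asparagine, changed least among the genes called lower. VARS, for which 7 rows of the files were summed, ran from 2324 to 3272 with a median of 2457 in the SCR libraries, and from 1613 to 2278 with a median of 1856 in the silenced libraries, a log2 fold change of -0.45 (adjusted p = 0.0257, SE 0.11). NARS had a lowest, median and highest value of 3953, 4347 and 4877 in SCR and of 2821, 3209 and 3811 after silencing, a log2 fold change of -0.44 (adjusted p = 0.0221, SE 0.10). Neither gene had a silenced library inside the SCR range, and each passed the threshold in 9 of the 12 fits without 1 library. VARS lost the call without siPOLR1D-2 3, siPOLR1D-3 2 or siPOLR1D-3 3 (adjusted p of 0.0523 to 0.056), and NARS without SCR 6, siPOLR1D-3 1 or siPOLR1D-3 3 (0.0511 to 0.0529), each at values within 0.05 of that with all libraries. Of the remaining free enzymes, TARS (threonine) and FARSB (the beta chain of the phenylalanine enzyme) had log2 fold changes of -0.42 and -0.36 with adjusted p of 0.0666 and 0.0755. HARS, which charges tRNA with histidine, had a log2 fold change of 0.11 (adjusted p = 0.494, SE 0.09). FARSA, the alpha chain of the phenylalanine enzyme, differed in sign from its partner FARSB. It had a lowest, median and highest value of 1019.9, 1328 and 1986 in SCR and of 1382, 1695 and 2180.0 after silencing. That is a log2 fold change of 0.33 (adjusted p = 0.221, SE 0.15) with a 95% interval of -0.00 to 0.66.

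**Figure D2:**
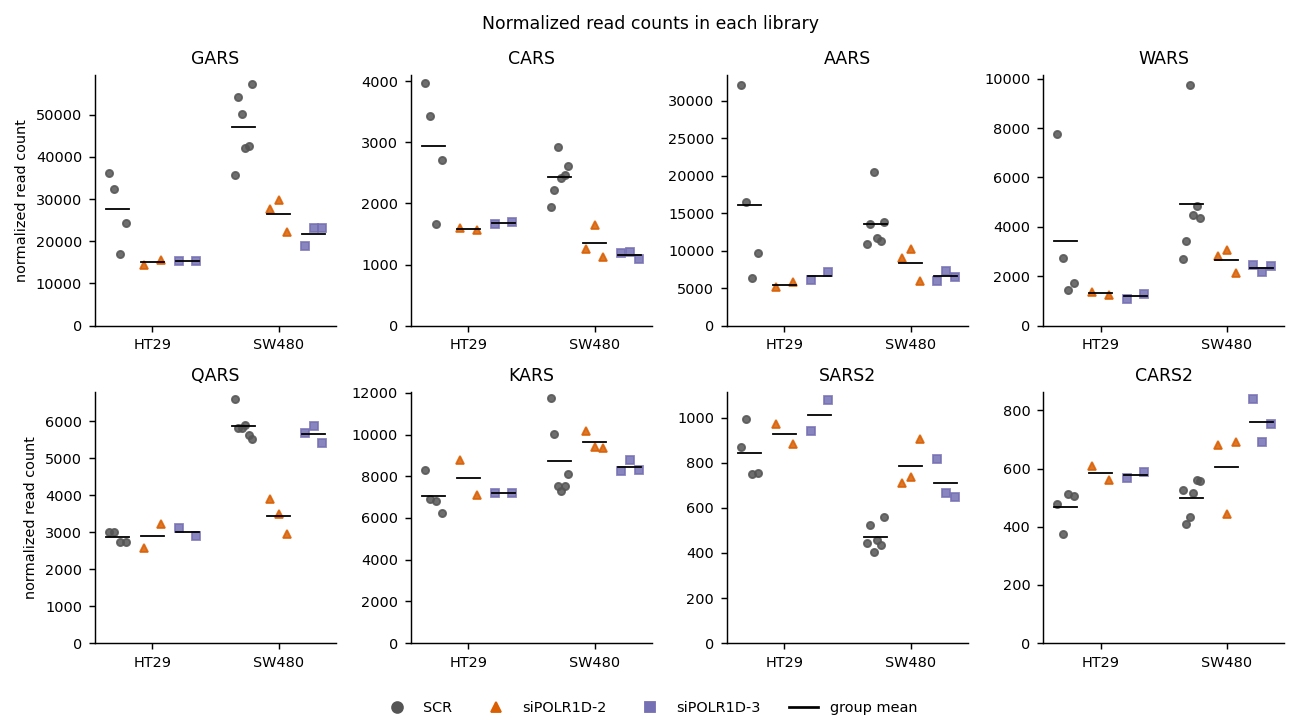
Normalized read count (y axis, from 0) of 8 genes in every library of HT29 and SW480, with symbols for SCR, siPOLR1D-2 and siPOLR1D-3 and a line at each group mean. In SW480 all silenced libraries of GARS, CARS and AARS sit below the SCR libraries and those of SARS2 above, QARS is low with siPOLR1D-2 and not with siPOLR1D-3, and in HT29 the SCR libraries of AARS spread from 6347 to 32177.

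Of the 8 enzymes of the multi-synthetase complex, 5 fell in SW480. EPRS joins the glutamyl and prolyl enzymes in 1 protein, and its counts ran from 13271 to 23581 with a median of 15889 in the SCR libraries, and from 7696 to 12341 with a median of 9546 in the silenced libraries. The groups were apart, with a log2 fold change of -0.79 (adjusted p = 0.0104, SE 0.15). IARS, for isoleucine, had a lowest, median and highest value of 17885, 20699 and 28005 in SCR and of 11485, 12674 and 17068 after silencing. Its groups were likewise apart, at -0.68 (adjusted p = 0.0119, SE 0.13) on the log2 scale. MARS charges both the initiator and the elongator methionine tRNA. It ran from 9411 to 13399 with a median of 11739.6 in the SCR libraries, and from 5998 to 9665 with a median of 6773 in the silenced libraries, and 5 of 6 silenced libraries were below the SCR range. The log2 fold change of MARS was -0.66 (adjusted p = 0.00989, SE 0.12). In GENCODE 29, MARS (chromosome 12, 57475445 to 57517569, plus strand) overlaps DDIT3 and ARHGAP9 on the opposite strand, and whether counting used the strand is not given in the sources used here. DDIT3, a stress-induced transcription factor, also fell by 1.74 on the log2 scale (SE 0.40, adjusted p = 0.0224), and the part of such reads in the MARS values was not tested.

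LARS attaches leucine and is also known as a leucine sensor of the mTORC1 pathway. LARS ran from 12629 to 23157 with a median of 14378 in the SCR libraries, and from 8095 to 12559 with a median of 9997 in the silenced libraries. SCR 3 was far above the other SCR libraries and the groups did not overlap. The log2 fold change of LARS, -0.60 (adjusted p = 0.0407, SE 0.16), held its call in 4 of the 12 fits without 1 library. It lost it without SCR 2, 3, 4 or 6, siPOLR1D-2 3, or siPOLR1D-3 1, 2 or 3, with log2 fold changes of -0.63 to -0.48 and adjusted p of 0.0587 to 0.0886. RARS, the arginine enzyme, had a lowest, median and highest value of 5901, 6248 and 6850.5 in SCR and of 3944, 4704 and 5087 after silencing. Its spread within groups was small, and the log2 fold change was -0.47 (adjusted p = 0.0118, SE 0.09). QARS, DARS and KARS, for glutamine, aspartate and lysine, did not pass the threshold. DARS had a log2 fold change of -0.20 (adjusted p = 0.397, SE 0.14). KARS, which serves both compartments, ran from 7291 to 11767 with a median of 7825 in the SCR libraries, and from 8233 to 10151 with a median of 9078 in the silenced libraries. SCR 1 and SCR 2 were above the other SCR libraries, the silenced libraries lay within the SCR range, and the log2 fold change was 0.07 (adjusted p = 0.769, SE 0.12) with a 95% interval of -0.19 to 0.34.

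QARS was the only member of the 39 whose level differed between the siRNAs in SW480. The 6 SCR libraries ran from 5513 to 6590.3. The siPOLR1D-2 libraries held 3907, 3486 and 2937, and the siPOLR1D-3 libraries 5673, 5870.0 and 5412. All siPOLR1D-2 libraries were below all others, and the siPOLR1D-3 libraries overlapped SCR. The difference siPOLR1D-3 minus siPOLR1D-2 was 0.72 on the log2 scale (SE 0.12, adjusted p = 0.0111, limma), and 3.32% of all genes differed between the siRNAs in SW480. Refitted without each library in turn, as an alternative chosen after seeing the data, the difference ran from 0.61 to 0.82, and it lost its call without siPOLR1D-3 1 (0.72, adjusted p = 0.0622) and without siPOLR1D-3 2 (0.70, adjusted p = 0.0552). Both siRNAs together gave QARS a log2 fold change of -0.42 (adjusted p = 0.139, SE 0.16). In HT29 the siRNAs differed by 0.06 for QARS (95% interval -0.30 to 0.41). No other member passed the threshold in this comparison in either line, and 11 of 39 had an unadjusted p under 0.05 in SW480, against 21.8% of all genes.

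Of the 16 mitochondrial synthetases, SARS2 rose in SW480, none fell and 15 were not past the threshold. SARS2 charges the mitochondrial serine tRNAs (chromosome 19, 38915266 to 38930896, minus strand). It ran from 404 to 559 with a median of 451 in the SCR libraries, and from 649.6 to 906 with a median of 725 in the silenced libraries. All silenced libraries were above all SCR libraries, the mean was 1.59-fold higher, and the log2 fold change was 0.67 (adjusted p = 0.00678, SE 0.12). Without any 1 library it kept the call in 12 of 12 fits, with values of 0.61 to 0.72. SARS2 overlaps MRPS12 on the opposite strand and AC011455.2 on the same strand in GENCODE 29, and its value is the sum of 2 rows. The part of reads from these neighbours in the SARS2 values was not tested. CARS2, the mitochondrial cysteine enzyme, had a lowest, median and highest value of 410.5, 520.3 and 559 in SCR and of 445, 690.1 and 839.7 after silencing. The ranges overlapped because siPOLR1D-2 2 held 445, and the log2 fold change was 0.43 (adjusted p = 0.0969, SE 0.15). TARS2, for threonine, had the lowest log2 fold change of this class in SW480. It ran from 776 to 979 with a median of 794 in the SCR libraries, and from 642 to 774 with a median of 733 in the silenced libraries. The groups did not overlap, with an exact 2-sided permutation p of 0.00216, the smallest that 6 against 6 libraries can give, but limma gave a log2 fold change of -0.20 (adjusted p = 0.222, SE 0.09). WARS2, for tryptophan, had a lowest, median and highest value of 172, 255 and 344 in SCR and of 241, 269 and 288 after silencing. Its log2 fold change was 0.14 (adjusted p = 0.641, SE 0.16), with SCR libraries on both sides of the silenced range. The other 12 mitochondrial genes had log2 fold changes between -0.17 and 0.28 in SW480, IARS2 being the lowest and MARS2 the highest of them.

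With both siRNAs pooled, the scaffolds were not called in SW480. AIMP1, the scaffold that also binds tRNA, ran from 1655 to 2296 with a median of 1821 in the SCR libraries, and from 1221 to 2109 with a median of 1589.6 in the silenced libraries. The 3 siPOLR1D-3 libraries of AIMP1 held 1221, 1432 and 1351, all below the SCR range, and the siPOLR1D-2 libraries lay within it. With siPOLR1D-3 alone against all SCR libraries AIMP1 was called lower, at -0.49 on the log2 scale (adjusted p = 0.0476, limma), while the difference between the siRNAs had an adjusted p of 0.0643. Both siRNAs together gave -0.23 (adjusted p = 0.339, SE 0.14). AIMP2 had a lowest, median and highest value of 882, 984 and 1227 in SCR and of 913, 996 and 1068 after silencing, a log2 fold change of -0.03 (adjusted p = 0.903, SE 0.09). EEF1E1, also called AIMP3, had a lowest, median and highest value of 518, 593 and 711 in SCR and of 559, 649 and 765 after silencing. Its log2 fold change was 0.13 (adjusted p = 0.525, SE 0.11), and the annotation has a readthrough transcript that shares its sequence.

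Grouped by the amino acid they charge, the cytosolic and the mitochondrial enzyme of the same name could be set side by side for 13 amino acids. In SW480 the cytosolic gene had the lower log2 fold change in 12 of the 13 pairs, with a median difference of -0.67. The widest gap was between SARS at -0.94 and SARS2 at 0.67, followed by CARS at -0.96 and CARS2 at 0.43. HARS and HARS2, neighbours in head-to-head orientation on chromosome 5 whose annotated ends overlap, were the exception, at 0.11 and -0.13. In HT29 the cytosolic gene was lower in 11 of 13 pairs, with a median difference of -0.41, and HARS and RARS were the exceptions. The synthetases also fall into structural classes with unrelated catalytic folds, a grouping chosen after the values were seen. Of the cytosolic class I genes 8 of 9 fell in SW480, QARS being the other, and of the class II genes 4 of 10, namely GARS, SARS, AARS and NARS. EPRS holds a domain of each class.

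**Figure D3:**
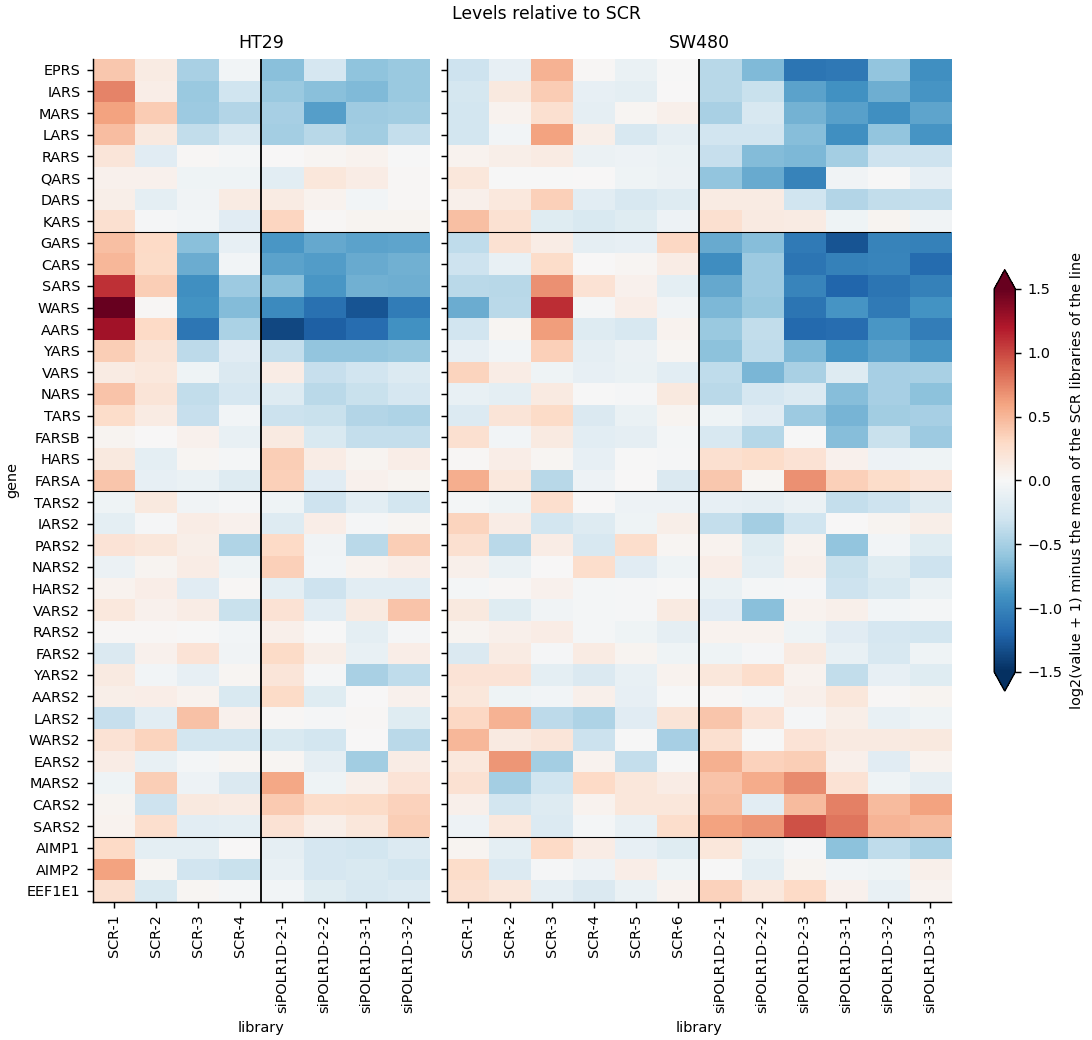
Log2(value + 1) of each of the 39 genes (rows, by class, horizontal lines between classes) in each library (columns), minus the mean of the SCR libraries of the line, with blue for lower and red for higher values and colours saturating at the ends of the scale. A vertical line separates SCR from silenced libraries. Averaged over the 20 cytosolic rows, values are below 0 in every silenced library of both lines, lowest among the HT29 SCR libraries in SCR 3 (-0.38), and highest in HT29 SCR 1 (0.47) and SW480 SCR 3 (0.26), while single rows such as FARSA, KARS and HARS are above 0 in several silenced libraries.

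In HT29 the log2 fold change was below 0 for 14 of the 20 cytosolic synthetases, all of them also below 0 in SW480, where the shares of all genes were 50% and 48.5%, but the SCR libraries were spread widely and no call was made. At an unadjusted p under 0.05, 10 of the 20 were lower and none higher, against 6.05% and 4.66% of all genes tested. AARS and WARS had the widest spread among the HT29 SCR libraries on the log2 scale. The counts of AARS were 32177, 16477, 6347 and 9682 in SCR 1 to 4, 5209 and 5758 with siPOLR1D-2, and 6089.9 and 7168 with siPOLR1D-3. SCR 1 and SCR 2 were far above the silenced libraries and SCR 3 lay within their range, and the log2 fold change was -1.16 (adjusted p = 0.427, SE 0.41). WARS held 7765, 2732, 1439 and 1709 in SCR 1 to 4, 1381 and 1239 with siPOLR1D-2, and 1097 and 1296 with siPOLR1D-3. All silenced libraries were below all SCR libraries, but SCR 1 alone was more than any other library by a wide margin and the log2 fold change was -1.11 (adjusted p = 0.438, SE 0.44). GARS held 36164, 32491, 17074 and 24369.9 in SCR 1 to 4, 14482 and 15557 with siPOLR1D-2, and 15198 and 15296 with siPOLR1D-3. Again no silenced library reached the SCR range, with a log2 fold change of -0.81 (adjusted p = 0.355, SE 0.21) and an exact permutation p of 0.0286, the smallest that 4 against 4 libraries allow.

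CARS counts in HT29 were 3967, 3424, 1670.0 and 2717 in SCR 1 to 4, 1601 and 1569.9 with siPOLR1D-2, and 1664 and 1696 with siPOLR1D-3. SCR 3 was within the silenced range, and the log2 fold change was -0.78 (adjusted p = 0.392, SE 0.23). SARS counts were 9457, 5698, 2327 and 3032 in SCR 1 to 4, 2853 and 2415 with siPOLR1D-2, and 2676 and 2667 with siPOLR1D-3. SCR 3 was here below all silenced libraries, and the log2 fold change was -0.74 (adjusted p = 0.499, SE 0.37). YARS had 8907, 7915, 5267 and 6166 in SCR 1 to 4, 5396 and 4594 with siPOLR1D-2, and 4571 and 4662 with siPOLR1D-3. Only siPOLR1D-2 1 reached the SCR range, and the log2 fold change was -0.53 (adjusted p = 0.408, SE 0.16). VARS, at 3553, 3656, 3126 and 2825 in SCR 1 to 4, 3539 and 2574 with siPOLR1D-2, and 2692 and 2841 with siPOLR1D-3, and NARS, at 6066, 5160.3, 3496 and 3806 in SCR 1 to 4, 3964 and 3402 with siPOLR1D-2, and 3593 and 3785 with siPOLR1D-3, overlapped widely between the groups. Their log2 fold changes were -0.18 and -0.30. HARS, the free enzyme with the highest log2 fold change in HT29, had 1608, 1317, 1487 and 1420.3 in SCR 1 to 4, 1881 and 1565 with siPOLR1D-2, and 1490.3 and 1562 with siPOLR1D-3. FARSA had 971, 664, 678 and 632 in SCR 1 to 4, 933 and 647 with siPOLR1D-2, and 758 and 747 with siPOLR1D-3. Neither separated SCR from silenced libraries, with log2 fold changes of 0.15 and 0.08.

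For the complex-bound enzymes in HT29, IARS held 31492, 20097, 12799.8 and 15271 in SCR 1 to 4, 12765 and 12114 with siPOLR1D-2, and 11836 and 12738 with siPOLR1D-3. The groups did not overlap, although SCR 3 was above the highest silenced library by only a narrow margin, and the log2 fold change was -0.60 (adjusted p = 0.438, SE 0.24). EPRS held 16967, 13895, 9119 and 12426 in SCR 1 to 4, 8249 and 10702 with siPOLR1D-2, and 8444 and 8675 with siPOLR1D-3. All but siPOLR1D-2 2 were below the SCR range, with a log2 fold change of -0.51 (adjusted p = 0.427, SE 0.18). MARS held 10954, 9410.4, 4965 and 5338 in SCR 1 to 4, 5135 and 4078 with siPOLR1D-2, and 4983 and 5044 with siPOLR1D-3, and LARS 11829.8, 9485, 6643 and 7296 in SCR 1 to 4, 6053 and 6447 with siPOLR1D-2, and 5966 and 6709.8 with siPOLR1D-3. In both, SCR 1 and SCR 2 were high and SCR 3 and SCR 4 close to the silenced libraries, and the log2 fold changes were -0.59 and -0.45. RARS was level across the line, at 3789, 2964, 3391 and 3260.1 in SCR 1 to 4, 3351 and 3397 with siPOLR1D-2, and 3468 and 3334 with siPOLR1D-3. Its log2 fold change was 0.02 (adjusted p = 0.947, SE 0.10), with a 95% interval of -0.20 to 0.24. QARS, at 3009.5, 3003, 2739.6 and 2741 in SCR 1 to 4, 2581 and 3225 with siPOLR1D-2, and 3099.8 and 2901 with siPOLR1D-3, and KARS, at 8302, 6935, 6823 and 6230.5 in SCR 1 to 4, 8773 and 7098 with siPOLR1D-2, and 7212 and 7209 with siPOLR1D-3, also overlapped throughout. Their log2 fold changes were 0.04 and 0.10, and that of DARS was 0.04.

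Among the mitochondrial genes in HT29, CARS2 was the only one with an unadjusted p under 0.05. It held 477, 373, 511 and 505 in SCR 1 to 4, 609.9 and 561 with siPOLR1D-2, and 568 and 587 with siPOLR1D-3. All silenced libraries were above all SCR libraries, with a log2 fold change of 0.33 (adjusted p = 0.437, SE 0.13). SARS2 held 869, 993, 750.2 and 753 in SCR 1 to 4, 972 and 885 with siPOLR1D-2, and 939 and 1080.2 with siPOLR1D-3, with a log2 fold change of 0.21 (adjusted p = 0.548, SE 0.13). TARS2 held 428, 496, 430.5 and 442 in SCR 1 to 4, 427 and 362 with siPOLR1D-2, and 402 and 371 with siPOLR1D-3. The silenced libraries were all below the SCR libraries, the closest by less than 1 normalized read, and the log2 fold change was -0.20 (adjusted p = 0.536, SE 0.12). WARS2, the lowest of this class in HT29, held 316, 344, 225 and 226 in SCR 1 to 4, 233 and 225 with siPOLR1D-2, and 274 and 206 with siPOLR1D-3. SCR 1 and SCR 2 were high and the groups overlapped, with a log2 fold change of -0.22 (adjusted p = 0.643, SE 0.18). The remaining 12 genes had values between -0.19 and 0.20. Of the scaffolds, AIMP2 held 743, 499, 401 and 389 in SCR 1 to 4, 454 and 411 with siPOLR1D-2, and 419.6 and 404 with siPOLR1D-3. EEF1E1 held 909, 657, 786 and 756 in SCR 1 to 4, 752 and 678 with siPOLR1D-2, and 653 and 668 with siPOLR1D-3, and AIMP1 2513, 1851, 1849.5 and 2056 in SCR 1 to 4, 1867 and 1728 with siPOLR1D-2, and 1694 and 1777 with siPOLR1D-3. SCR 1 was the highest library for each of the 3 scaffolds, and their log2 fold changes were between -0.22 and -0.17.

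Counting separation alone, 11 of the 20 cytosolic synthetases in SW480 and 3 in HT29 had every silenced library below every SCR library, as did TARS2 in both lines. Among all genes tested the shares were 2.88% and 4.17%. SARS2 in SW480 and CARS2 in HT29 had every silenced library above, against 1.68% and 2.72% of all genes. The cytosolic genes apart in HT29 were GARS, WARS and IARS.

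The log2 fold changes of the lines, which share no library, lay in a similar order. Over the 39 genes Pearson's r was 0.84 and Spearman's rho 0.78, over the 20 cytosolic synthetases 0.86 and 0.93, and over the 16 mitochondrial ones 0.49 and 0.34. Over the 12724 genes tested in both lines the values were 0.385 and 0.393. These are correlations across genes, which are not independent replicates, and within each line all points share the same SCR libraries. No member passed the test of the difference between the lines, for which 0.0393% of genes were called, and 2 of the 39 had an unadjusted p under 0.05, against 8.58% of all genes. The smallest adjusted p was that of RARS, 0.235, with a difference, SW480 change minus HT29 change, of -0.49 on the log2 scale (95% interval -0.77 to -0.21). SARS2 was the other, at a difference of 0.46 (95% interval 0.10 to 0.82, adjusted p = 0.438).

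**Figure D4:**
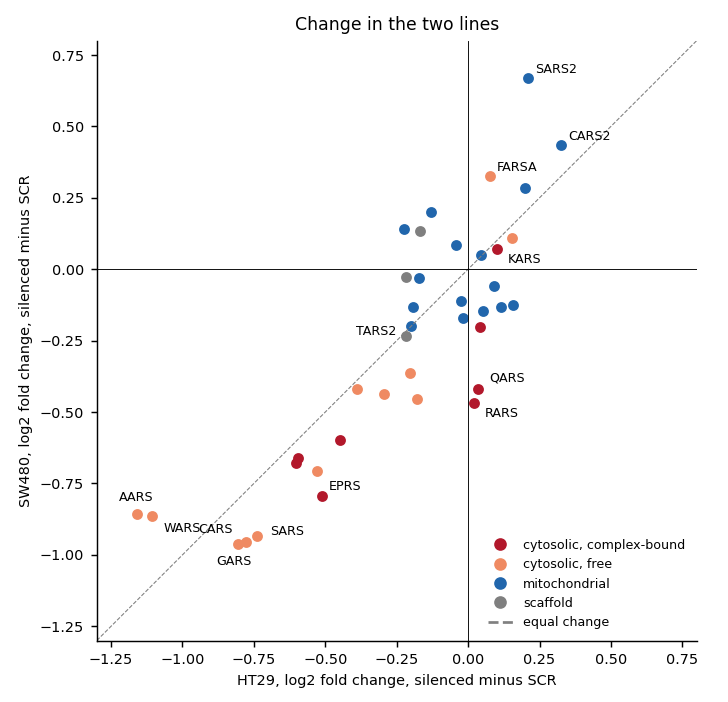
Log2 fold change of each of the 39 genes in HT29 (x axis) against SW480 (y axis), silenced minus SCR on the log2(value + 1) scale, with colours for the class and a dashed line of equal change. The cytosolic genes spread towards the lower left, where AARS and WARS are lower in HT29 and GARS, CARS and SARS lower in SW480, and the mitochondrial genes sit around 0 with SARS2 and CARS2 at the upper right.

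Comparisons that share no SCR library gave the direction for each siRNA. In SW480, siPOLR1D-2 against SCR 1 to 3 gave a median of -0.61 over the 20 cytosolic synthetases, with 17 below 0, and siPOLR1D-3 against SCR 4 to 6 a median of -0.66, with 17 below 0. In the latter 14 cytosolic genes and the scaffold AIMP1 were called lower, and FARSA and the mitochondrial SARS2 and CARS2 higher, where 20.2% of all genes were called. In the former none of the 39 was called, and 0 of 14800 genes, with 2061 at an unadjusted p under 0.05 in limma. In HT29, siPOLR1D-2 against SCR 1 and 2 gave a cytosolic median of -0.66, with 16 of 20 below 0, and siPOLR1D-3 against SCR 3 and 4 a median of -0.12, with 13 of 20 below 0. No member was called in either, where 0.0373% and 1.76% of all genes were. Against all SCR libraries of SW480, siPOLR1D-2 alone gave 6 members called, 5 lower and 1 higher, where 3.68% of all genes were called, and siPOLR1D-3 alone 16, 14 lower and 2 higher, where 5.84% were. The HT29 value thus moved with the choice of SCR libraries. Leaving out SCR 1 changed its median over all silenced libraries from -0.42 to -0.30.

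Within the sides of the first principal component in SW480, the cytosolic synthetases were below 0 for 17 of 20 genes on each. The sides were drawn from these same values and reuse the libraries of the fit above, so they are not a repeat of it. They also differ in siRNA, as all siPOLR1D-3 libraries lay on the side with SCR 4 to 6. On the side with SCR 1 to 3 and 2 silenced libraries the median was -0.51 and no member was called, as was no other gene by limma (1520 of 15110 at an unadjusted p under 0.05). On the side with SCR 4 to 6 and 4 silenced libraries the median was -0.60, with 13 cytosolic genes called lower and FARSA, SARS2 and CARS2 higher, where 12.5% of all genes were called. The mitochondrial medians were -0.02 and -0.01.

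The genes around the synthetases were described with lists chosen with earlier results of these data known. Of 33 genes of ATF4 and the amino acid response, 22 fell in SW480 and none rose, with a median log2 fold change of -0.96. PPP1R15A, a phosphatase subunit of the stress response, changed by -1.94 (SE 0.28, adjusted p = 0.00275). ASNS, asparagine synthetase, changed by -1.79 (SE 0.23, adjusted p = 0.00166). SESN2, ATF3, DDIT3 and TRIB3, which are stress-induced regulators, had log2 fold changes of -1.93, -1.74, -1.74 and -1.70. ATF4 itself fell by 0.81 on the log2 scale (SE 0.14, adjusted p = 0.00649). In HT29, 30 genes of this list were tested and none was called, 24 had an unadjusted p under 0.05 with a lower value, and the median was -1.10.

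Other steps of translation had fewer calls than the cytosolic synthetases, where 4.29% of all genes tested in SW480 were called lower and 2.44% higher. None of 8 cytosolic elongation factors and none of 15 mitochondrial translation factors was called in either line by limma, with 3 and 2 of them at an unadjusted p under 0.05 in SW480 and 0 and 1 in HT29. Of 34 tested genes of tRNA processing, modification and export, 3 fell and 3 rose in SW480. XPOT, the exporter of tRNA from the nucleus, fell by 0.78 (SE 0.17, adjusted p = 0.0191), and TSEN15 and ELP3, of tRNA splicing and modification, by 0.54 and 0.44. RPP40 and POP1, subunits of RNase P, rose by 0.70 and 0.64 and the pseudouridine synthase PUS7 by 0.43, all on the log2 scale. Of 24 genes of RNA polymerase III and its factors, POLR3D fell by 0.49, and POLR3E and BRF1 rose by 0.68 and 0.42. In HT29 no gene of either list was called by limma, with 2 of each at an unadjusted p under 0.05.

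Library by library, the mean log2 level of the 20 cytosolic synthetases and that of the ATF4 list, each relative to the SCR mean of the line, took the same order among the HT29 SCR libraries. For SCR 1 to 4 the synthetases were at 0.47, 0.11, -0.38 and -0.20, and the list at 0.88, 0.46, -0.97 and -0.37. The 4 silenced libraries of HT29 ran from -0.44 to -0.32 for the synthetases and from -1.32 to -1.13 for the list. SCR 3 thus lay inside the silenced range for the synthetases and just above it for the list. In SW480 the synthetases ran from -0.09 to 0.26 in SCR and from -0.65 to -0.35 after silencing, with no overlap. The list ran from -0.73 to 0.40 and from -1.22 to -0.53, and overlapped through SCR 1 and siPOLR1D-2 2. Among the SW480 SCR libraries the order was not the same, with SCR 3 highest for the synthetases and SCR 6 highest for the list. SCR 1 was the lowest for both, at -0.09 and -0.73. The part of this list in the synthetase result was not tested.

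**Figure D5:**
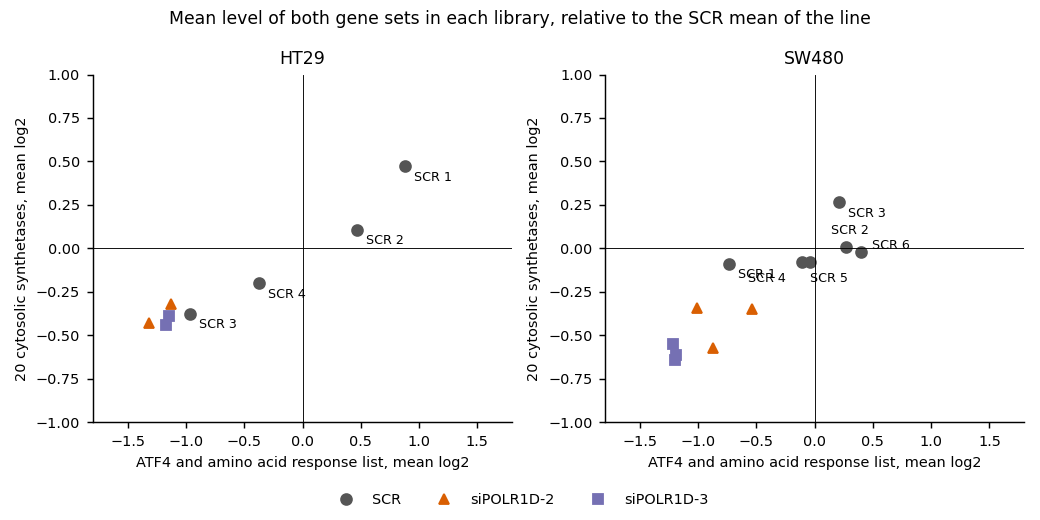
Mean log2(value + 1) of the 20 cytosolic synthetases (y axis) against that of the genes of the ATF4 and amino acid response list (x axis, 30 genes in HT29 and 33 in SW480) in each library, both relative to the SCR mean of the line. In HT29 the SCR libraries form a line from SCR 1 at 0.88 and 0.47 to SCR 3 at -0.97 and -0.38, next to the silenced libraries, and in SW480 the silenced libraries lie below all SCR libraries on the y axis.

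As 13 of the 20 cytosolic synthetases were called lower in SW480, the promoters of the members were searched on both strands. The letters searched were TGATGNAA, the core of the composite site known to bind ATF4 with a C/EBP partner, and for comparison the ETS motif CCGGAAG. The windows were those of RefSeq on GRCh38.p14, from 250 bases before to 50 bases after each gene start, and 33 of the 39 genes had an entry. The RefSeq start of MARS lies inside its GENCODE 29 gene. TGATGNAA was present for 7 of 16 cytosolic synthetases (43.8%), 1 of 14 mitochondrial ones (7.14%) and 0 of 3 scaffolds, and for 4.46% of 27305 genes with a window. Of the genes called lower in SW480, 6 of 10 with a window held it, and of the other cytosolic synthetases 1 of 6. The ETS motif was in 9 of 16 cytosolic and 7 of 14 mitochondrial windows, against 12.2% of all genes. No TGATGNAA match overlapped a match of the ETS motif. A match of these letters is a description of the window and not evidence of binding.

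The 8 matching stretches are printed with 9 bases on each side, as all matches found among the members, with the motif in capitals and each stretch on the strand on which it reads TGATGNAA.
GARS (chr7:30594836-30594861, minus strand): ctcggagcaTGATGAAAtcgccgcgt
CARS (chr11:3057409-3057434, plus strand): cctagaatcTGATGCAAccgccgccc
AARS (chr16:70289677-70289702, plus strand): taacttggcTGATGCAActgcgagaa
IARS (chr9:92293694-92293719, plus strand): gcacggaggTGATGCAAcgcgctgaa
MARS (chr12:57488055-57488080, minus strand): atccctcgcTGATGCAAccggaaccg
NARS (chr18:57621806-57621831, minus strand): tacgctctcTGATGCAAcgccggaat
TARS (chr5:33440958-33440983, minus strand): tggaccagcTGATGCAAtcgaaaggc
YARS2 (chr12:32756078-32756103, minus strand): ccacactgcTGATGGAAaaattaagt
The 7 cytosolic stretches read TGATGCAA in 6 genes and TGATGAAA in GARS, and the mitochondrial gene YARS2 reads TGATGGAA. Counted from the gene start, the motif lay between -33 and 22 for GARS, CARS, IARS, MARS, NARS and TARS, while it began at -187 for AARS and at -197 for YARS2. Of these 8 genes, GARS, CARS, AARS, IARS, MARS and NARS fell in SW480, TARS had a log2 fold change of -0.42 and YARS2 of -0.03.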

How the data were processed

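The 20 RNA-seq libraries of transfected HT29 and SW480 cells were made by exome capture and paired-end sequencing. Per the labels and the methods of the study, the authors used FastQC 0.11.5, kallisto 0.44.0 and DESeq2 1.24.0 with hg38. The authors deposited 1 file per library with a signal value per gene, a read count normalized over the libraries of a line. The kallisto annotation and the use of strand are not given in the sources used here. Values were not treated as whole reads, so no count test was run, and depth per library is an estimate. At most 14.9% of low values were multiples of 1 read within 0.001. The value of 1 read was itself a rounded estimate, so this share cannot show whether reads were whole. Rows sharing a name were summed, which concerned CARS, VARS, SARS2 and VARS2. Replicates differed by more than sampling noise (mean chi-square per gene of 11.0 to 185), so none was merged.

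Each line was fitted alone with limma 3.58.1 (R 4.3.3) on log2(value + 1) with an empirical Bayes trend, silenced against SCR with both siRNAs pooled, over genes that reached 10 in a number of libraries equal to the size of the smaller group. The p-values were adjusted by Benjamini-Hochberg over all genes tested. Differences between lines were tested as an interaction over 20 libraries, siRNAs in a fit with a mean each, and single genes by exact 2-sided permutation tests, whose smallest p is 0.0286 in HT29 and 0.00216 in SW480. The fit was tested on simulated data. Named were the members past a threshold, GARS, the highest and lowest log2 fold change of each class in each line, and of each list up to 6 genes past the threshold. Members and lists were chosen with earlier results of these data known. Alternatives covered scaling, pseudocount, filter, variance model, siRNA, sides of the first component and leaving out each library.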

Additional observations from a re-analysis of the deposited data

Results flagged for a closer look

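A value far from the rest was sought in 100 sets, each 1 gene in 1 group of 4 to 6 libraries, and 12 held one. For independent sets chance alone gives about 1 in 20. These sets reuse the same libraries, so the 12 cannot be set against that share. In 6 of the 12 the library was SW480 SCR 3, the highest of its group. AARS stood at 20528 there against 10939 to 13838 in the other SCR libraries, EPRS at 23581 against 13271 to 16711, LARS at 23157 against 12629 to 16219, WARS at 9733 against 2699.9 to 4856, YARS at 10518 against 7484 to 8364, and the mitochondrial TARS2 at 979 against 776 to 824. The glutamine enzyme QARS was highest in SW480 SCR 1, at 6590.3 against 5513 to 5911. CARS was high in SW480 siPOLR1D-2 2, at 1653 against 1085 to 1262 in the other silenced libraries.

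In HT29, KARS stood at 8773 in siPOLR1D-2 1 against 7098 to 7212 in the other silenced libraries, and YARS at 5396 in the same library against 4571 to 4662. MARS was low in siPOLR1D-2 2, at 4078 against 4983 to 5135. FARSA was high in SCR 1, at 971 against 632 to 678 in the other SCR libraries.

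The level of QARS differed between the siRNAs in SW480, by 0.72 on the log2 scale (adjusted p = 0.0111, limma), as siPOLR1D-3 minus siPOLR1D-2.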

How the results depend on the processing

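The labels do not say whether a replicate number marks a shared culture or day. Deviations of same-numbered libraries correlated at -0.13 to 0.03 in HT29 and -0.41 to 0.57 in SW480, and 0 of 4 and 0 of 6 silenced libraries correlated best with their own number. No silenced library carries the number 3 or 4 in HT29, or 4, 5 or 6 in SW480. A block for the number therefore compares the silenced libraries with SCR 1 and 2 alone in HT29, and with SCR 1 to 3 alone in SW480. With the replicate number as a block, HT29 had 12 members, 735 genes of all and 28 of the ATF4 list past the threshold and POLR1D at -0.80 (adjusted p = 0.0404, limma), and SW480 had 0, 0 (3003 at an unadjusted p under 0.05, limma) and 0, with POLR1D at -1.17 (adjusted p = 0.0865). Elsewhere the members past the threshold in SW480, 14 in the report, numbered 6 with siPOLR1D-2 alone, 0 with siPOLR1D-2 against the lower-numbered SCR, 0 within side A of the first component, and 10 to 15 without 1 library. The ATF4 list (22 in SW480) gave 6, 0 and 0 in the same settings, and 11 to 24 without 1 library. In HT29 (0) it gave 3 with siPOLR1D-2 against the lower-numbered SCR, 1 with both lines in 1 fit and 0 to 1 without 1 library. POLR1D in SW480 missed the threshold with siPOLR1D-2 against the lower-numbered SCR (-1.13) and within side A (-1.06), and in HT29 it passed with siPOLR1D-3 against the higher-numbered SCR (-0.80).

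All genes past the threshold in SW480, 1011 with 367 higher and 644 lower, numbered 666 without a filter, 3057 with array weights, 574 with siPOLR1D-2 alone, 0 with siPOLR1D-2 against the lower-numbered SCR, 3110 with siPOLR1D-3 against the higher-numbered SCR, 0 within side A, 1939 within side B, 1993 with side as a covariate and 534 to 1283 without 1 library. Upper quartile scaling gave 564 higher and 478 lower and quantile normalization 506 and 603. In HT29 the 0 became 5, 237 and 4 with siPOLR1D-2 against the lower-numbered SCR, siPOLR1D-3 against the higher-numbered SCR and both lines in 1 fit, and 0 to 1 without 1 library. The count between the siRNAs in SW480, 1 member, was 0 to 2 without 1 library. The cause of these shifts was not tested.

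The log2 fold changes that changed sign were not all small, as HT29 SARS was at -0.74 and NARS at -0.30 with all libraries. In HT29 these were KARS -0.0085, FARSA -0.072 and QARS -0.031 under the block, WARS2 0.079, AIMP2 0.0595, NARS 0.016 and SARS 0.0082 with siPOLR1D-3 against the higher-numbered SCR, and SARS2 -0.0023, FARSA -0.048 and QARS -0.059 with siPOLR1D-2 against the lower-numbered SCR. Without 1 library RARS ran from -0.036 to 0.082, FARSA from -0.020 to 0.22 and QARS from -0.0089 to 0.098. In SW480 they were KARS -0.095 and WARS2 -0.13 under the block, KARS -0.024 and HARS -0.026 with siPOLR1D-3 alone, AIMP1 0.021 with siPOLR1D-2 alone, WARS2 -0.13 with siPOLR1D-2 against the lower-numbered SCR and -0.16 within side A, and AIMP2 0.042 with upper quartile scaling, 0.031 with quantile normalization, 0.0071 with array weights, 0.0053 with siPOLR1D-3 against the higher-numbered SCR, 0.018 within side B and -0.066 to 0.029 without 1 library. None of these was past the threshold. Depth per library is an estimate, so no counting interval is given.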

Other observations

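In SW480 the aspartate enzyme DARS separated by the side of the first principal component. The 5 libraries of side A, SCR 1 to 3 and siPOLR1D-2 1 and 2, ran from 4324 to 5241, and the 7 of side B from 3031 to 3676. RARS2, the mitochondrial arginine enzyme, split in the same way, at 4119 to 4326 on side A and 3298 to 3925 on side B. These 2 of the 39 genes, chosen after their values were seen, compare with 9.36% of all genes tested whose values did not overlap between the sides, and the sides were drawn from the same values.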
